A study of Mus musculus with 10 samples.

Results

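The genes described here are the insulin receptor gene *Insr*, its docking proteins *Irs1* and *Irs2*, the PI3K regulatory subunit gene *Pik3r1*, the kinases *Akt1* and *Akt2*, the forkhead factors *Foxo1*, *Foxo3* and *Foxo4*, and the pseudokinase *Trib1*. These 10 genes were chosen by name and found in the count table through their Ensembl identifiers, and all 10 were among the 12147 genes tested of the 12148 in the table. Liver RNA came from wild-type, germ-free C57BL6 mice, 5 of which received extracellular vesicles prepared from the gut contents of control mice that carry a microbiota (GF+MEV), and 5 the carrier PBS (GF+PBS). The vesicles were given by mouth as 80 μg in PBS, 2 times a week for 3 weeks, and 1 library was made per mouse from whole liver. Age and sex of the germ-free mice, and their feeding state and the hour at which livers were taken, are not given in the sources used here. Cages and litters are not given either, and whether they coincided with treatment is not known. The p-values set the difference between the groups against the spread between these livers. An effect of housing was not tested.

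Insulin binding activates the receptor kinase, which phosphorylates the IRS docking proteins. These recruit PI3K, the lipid product of PI3K brings AKT to the membrane, and AKT phosphorylates FOXO factors, which then leave the nucleus. In the unstimulated liver, nuclear FOXO factors switch on genes of glucose production and also *Insr* and *Irs2* themselves. RNA-seq measures the messenger RNAs of these proteins and not their phosphorylation.

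Libraries held between 15746119 and 20523649 counts on genes, and each of the 10 genes was counted between 77 and 3018 times per library. Values below are CPM, counts scaled to library size after TMM normalisation. A log2 fold change is GF+MEV over GF+PBS from edgeR's quasi-likelihood test, with a p-value adjusted by Benjamini-Hochberg over all tested genes and a threshold of 0.05. Its standard error and 95% interval come from limma on log2 CPM. One library stood apart, GF+MEV replicate 2, with a TMM factor of 0.890 against 0.978 to 1.01 in the rest of its group, and between 133 and 175 chi-square per gene against the other GF+MEV livers. All other pairs within a group lay between 6.33 and 24.9, the lowest being GF+PBS replicates 1 and 3 (6.33) and replicates 4 and 5 (7.17), so every pair differed by more than counting error.

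*Foxo1*, *Foxo3* and *Trib1* were higher in GF+MEV livers, and the other 7 genes did not pass the threshold. Of all tested genes, 7.64% passed it, 4.12% upwards and 3.52% downwards. In these 3 genes every GF+MEV liver lay above every GF+PBS liver, and none of the 10 genes was separated in the other direction. Over all tested genes, 7.39% were separated, 3.94% with GF+MEV above and 3.45% with GF+MEV below. The median log2 fold change of the 10 genes was 0.24, against 0.00 (-0.0037) over all tested genes, with 7 values above zero and 3 below. At an unadjusted p under 0.05 were 5 of the 10, with *Irs2* and *Insr* added to the 3. The share of all tested genes under this unadjusted cut was not counted. It exceeds the 7.64% called, since every called gene is also under it.

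**Figure D1:**
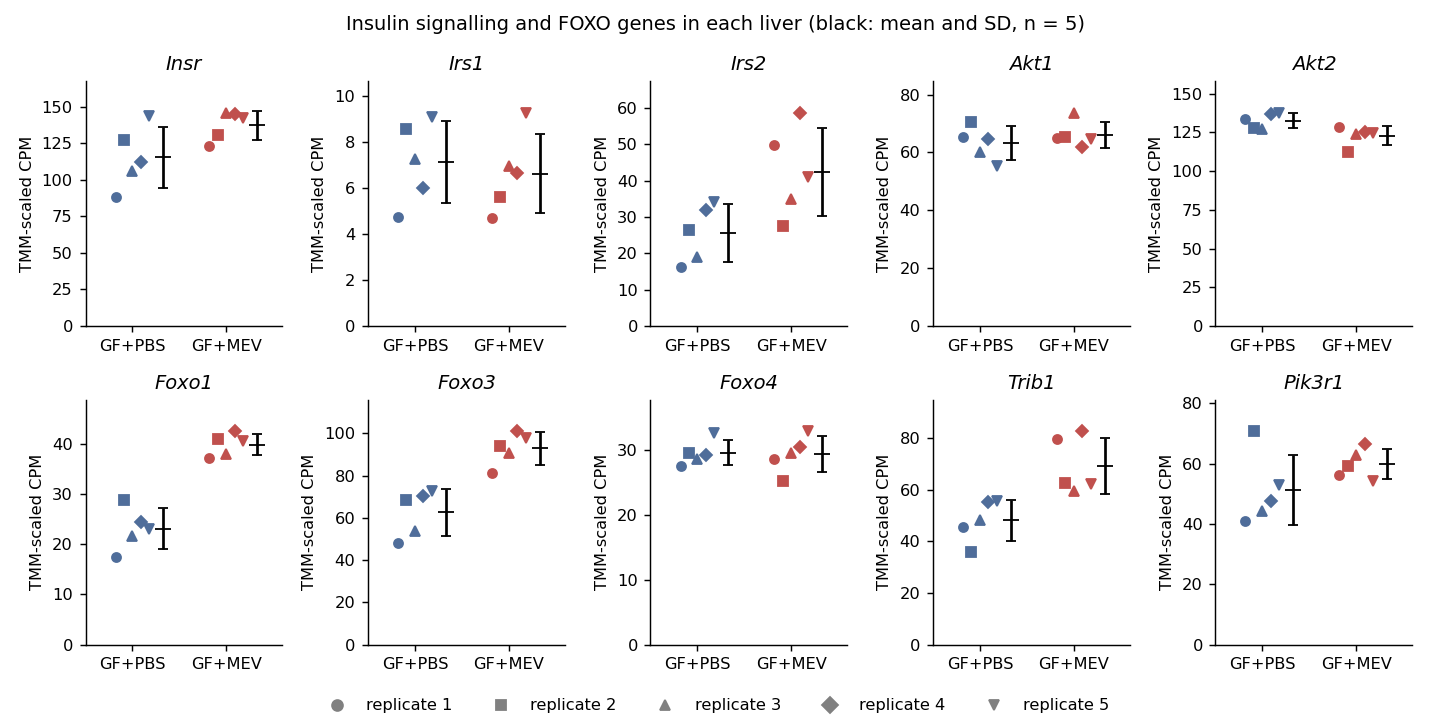
TMM-scaled CPM of each gene (vertical axes, each from 0) in GF+PBS (blue) and GF+MEV (red) livers, with 1 symbol shape per replicate number and the mean and SD in black (n = 5). The groups are apart in *Foxo1*, *Foxo3* and *Trib1*, and 4 of 5 GF+MEV livers lie above all GF+PBS livers in *Irs2*.

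The receptor gene *Insr* (ENSMUSG00000005534, chromosome 8 of GRCm38, 3122061 to 3279617, minus strand) was measured at 123, 131, 146, 145 and 142 CPM in GF+MEV replicates 1 to 5. In GF+PBS replicates 1 to 5 it was at 88.2, 127, 106, 112 and 143 CPM. The GF+PBS livers spread over the wider range, and GF+PBS replicates 2 and 5 lay within the range of the GF+MEV livers. The log2 fold change was 0.25 (95% interval 0.04 to 0.49, standard error 0.11) with an edgeR adjusted p of 0.178. Without GF+PBS replicate 5, the highest of its group, it was 0.34 (adjusted p = 0.0406). With any other single liver left out, *Insr* did not pass the threshold (edgeR adjusted p up to 0.313).

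*Irs1* and *Irs2* encode the docking proteins through which the receptor reaches PI3K in hepatocytes. *Irs2* (ENSMUSG00000038894, chromosome 8, 10984681 to 11008458, minus strand) was at 49.8, 27.5, 35.05, 58.7 and 41.0 CPM in GF+MEV livers. In GF+PBS livers it was at 16.2, 26.6, 19.0, 32.0 and 34.2 CPM. GF+MEV replicate 2 was the 1 liver of its group inside the GF+PBS range. The mean went from 25.6 ± 7.90 to 42.4 ± 12.2 CPM (± SD, n = 5 each). On the log2 scale this was 0.73 (95% interval 0.27 to 1.20, standard error 0.22), and with an edgeR adjusted p of 0.0539 it just missed the threshold. The call rested on single livers, since the adjusted p was 0.0231 without GF+MEV replicate 2 (log2 fold change 0.85), 0.0309 without GF+PBS replicate 5, and up to 0.124 without other livers.

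*Irs1* (ENSMUSG00000055980, chromosome 1, 82233101 to 82291416, minus strand) was the least abundant of the 10 genes. It was at 4.70, 5.59, 6.95, 6.62 and 9.25 CPM in GF+MEV livers and at 4.72, 8.57, 7.26, 6.01 and 9.07 CPM in GF+PBS livers. The groups covered nearly the same range. The log2 fold change was -0.10 (95% interval -0.52 to 0.31, edgeR adjusted p = 0.827), so a change of the size seen in *Irs2* lay outside the interval. Exons of *Irs1* share 2822 bases with those of Gm9747 on the other strand, and the strand setting of the counting is not given, so its few counts may include reads of that gene. For *Irs2* the shared stretch, with 9530052E02Rik, is 162 bases.

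The stretches before the start sites of this pair are shown because the paralogues differ in level and in the direction of their values. They come from RefSeq's promoter table (GRCm38.p6), 5′ to 3′ on the gene's strand, with exonic bases left out. Capitals mark CACGTG (the E-box), TTGTTTT (the reverse complement of AAAACAA, a core of FOXO-bound insulin response elements) and CGTCA (the reverse complement of TGACG, a CREB half-site).
Irs2 (chr8:11008930-11009179, minus strand): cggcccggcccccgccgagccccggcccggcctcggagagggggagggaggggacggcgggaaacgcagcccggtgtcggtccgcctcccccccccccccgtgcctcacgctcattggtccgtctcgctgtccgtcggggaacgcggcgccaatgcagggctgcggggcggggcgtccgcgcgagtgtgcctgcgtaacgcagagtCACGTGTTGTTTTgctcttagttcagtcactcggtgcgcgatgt
Irs1 (chr1:82291440-82291689, minus strand): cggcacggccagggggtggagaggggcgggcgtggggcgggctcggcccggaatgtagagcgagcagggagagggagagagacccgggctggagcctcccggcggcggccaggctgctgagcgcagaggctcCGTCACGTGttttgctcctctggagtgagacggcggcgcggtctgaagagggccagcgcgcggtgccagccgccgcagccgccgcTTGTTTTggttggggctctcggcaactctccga
Both hold a CACGTG and a TTGTTTT. In *Irs2* the 2 motifs are joined, starting 44 and 38 bases before the start site, while in *Irs1* they start 115 and 33 bases before it. In *Irs1* a CGTCA, 118 bases before the start site, overlaps the CACGTG. Over all 32851 entries of the table, searched on both strands, 7.15% hold CACGTG, 9.02% AAAACAA, 0.454% both, and 20.8% TGACG. A match describes letters and does not show binding.

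Within a liver, *Irs2* exceeded *Irs1* by 2.64 ± 0.56 on the log2 scale in GF+MEV and by 1.81 ± 0.38 in GF+PBS (SD, n = 5 livers each). The difference of 0.84 gave an exact two-sided permutation p of 0.0317 (n = 5 per group), or 0.0635 adjusted over the 4 ratios tested. This ratio is free of library scaling, and 3 of the 5 GF+MEV livers lay inside the GF+PBS range of 1.37 to 2.39.

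*Pik3r1* (ENSMUSG00000041417, chromosome 13, 101680563 to 101768217, minus strand) encodes p85α, the regulatory subunit that holds the PI3K catalytic subunit at IRS proteins. It was at 56.3, 59.1, 63.0, 66.6 and 54.3 CPM in GF+MEV livers and at 41.0, 70.7, 44.2, 47.5 and 52.8 CPM in GF+PBS livers. GF+PBS replicate 2 was the highest of all 10 livers, and the other 4 GF+PBS livers lay below every GF+MEV liver. The log2 fold change was 0.23 (95% interval -0.01 to 0.50, edgeR adjusted p = 0.316), and without that liver it was 0.37 (adjusted p = 0.0163). With any other single liver left out, *Pik3r1* did not pass the threshold (edgeR adjusted p up to 0.528). Its ratio to *Pik3ca*, the gene of the p110α catalytic subunit, was 0.96 ± 0.12 in GF+MEV and 0.80 ± 0.23 in GF+PBS on the log2 scale (exact two-sided permutation p = 0.198, n = 5 per group). Without GF+PBS replicate 2 the difference of this ratio went from 0.16 to 0.25 (exact permutation p of 0.0317 adjusted over the 4 ratios). The adjusted exact permutation p lay between 0.159 and 0.381 with any other single liver left out.

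*Akt1* and *Akt2* encode the kinases that phosphorylate FOXO factors, and AKT2 is the form most tied to insulin action on glucose. *Akt2* (ENSMUSG00000004056, chromosome 7, 27591552 to 27640826, plus strand) was at 128.5, 112.5, 124, 125 and 125 CPM in GF+MEV livers and at 134, 128, 127, 137 and 138 CPM in GF+PBS livers. Its log2 fold change was -0.11 (95% interval -0.22 to 0.00, edgeR adjusted p = 0.263). *Akt1* (ENSMUSG00000001729, chromosome 12, 112653821 to 112674884, minus strand) lay between 61.7 and 73.6 CPM in GF+MEV livers and between 55.4 and 70.7 CPM in GF+PBS livers. Its log2 fold change was 0.06 (95% interval -0.09 to 0.22, edgeR adjusted p = 0.675). For both kinases the interval leaves no room for a change as large as the 0.57 of *Foxo3*. The *Akt2* to *Akt1* ratio was 0.90 ± 0.12 in GF+MEV and 1.07 ± 0.16 in GF+PBS on the log2 scale (exact two-sided permutation p = 0.0873, 0.116 adjusted over the 4 ratios, n = 5 per group). Without GF+PBS replicate 2, the difference of this ratio was -0.23, with an exact permutation p of 0.0317 after that adjustment. The adjusted exact permutation p lay between 0.0952 and 0.222 with any other single liver left out.

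*Foxo1* (ENSMUSG00000044167, chromosome 3, 52268336 to 52353221, plus strand) encodes the main FOXO factor of hepatic glucose production. It was at 37.3, 41.0, 38.1, 42.5 and 40.6 CPM in GF+MEV livers and at 17.6, 28.9, 21.6, 24.5 and 23.0 CPM in GF+PBS livers. The lowest GF+MEV liver lay above the highest GF+PBS liver, and the GF+MEV livers had the smaller spread. The mean rose from 23.1 ± 4.13 to 39.9 ± 2.16 CPM (± SD, n = 5 each). The rise was 1.73-fold (95% interval 1.49 to 2.04), or 0.79 ± 0.11 (standard error) on the log2 scale, with an edgeR adjusted p of 0.000205. Exons of *Foxo1* share 674 bases with those of Gm20402 on the other strand.

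*Foxo3* (ENSMUSG00000048756, chromosome 10, 42181841 to 42276755, minus strand) encodes another FOXO factor, known for autophagy and stress resistance genes. It was at 81.0, 94.2, 90.6, 101 and 97.7 CPM in GF+MEV livers and at 48.0, 68.3, 53.6, 70.1 and 72.8 CPM in GF+PBS livers, again without overlap. The mean rose from 62.6 ± 11.02 to 92.9 ± 7.67 CPM (± SD, n = 5 each), or by 0.57 on the log2 scale (95% interval 0.35 to 0.82, standard error 0.11), with an edgeR adjusted p of 0.00404. No exon of *Foxo3* overlaps another annotated gene.

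*Foxo4* (ENSMUSG00000042903, chromosome X, 101254528 to 101260873, plus strand) was at 28.7, 25.3, 29.6, 30.4 and 32.9 CPM in GF+MEV livers and at 27.6, 29.6, 28.7, 29.3 and 32.7 CPM in GF+PBS livers. Both groups centred on the same level. The log2 fold change was -0.01 (95% interval -0.18 to 0.15, edgeR adjusted p = 0.961). The upper end of this interval lies below the lower ends for *Foxo1* (0.58) and *Foxo3* (0.35), but the difference between these genes was not tested. Between *Foxo1* and *Foxo3* it was: the log2 ratio was -1.21 ± 0.06 in GF+MEV and -1.43 ± 0.17 in GF+PBS (exact two-sided permutation p = 0.0317, 0.0635 adjusted over the 4 ratios, n = 5 per group). Without GF+PBS replicate 2 the difference of this ratio was 0.27, with an exact permutation p of 0.0317 after adjustment. The adjusted exact permutation p lay between 0.0635 and 0.143 with any other single liver left out.

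The upstream stretches of the pair of FOXO genes that rose are shown for comparison, from the same RefSeq table and with the same search.
Foxo1 (chr3:52268087-52268335, plus strand): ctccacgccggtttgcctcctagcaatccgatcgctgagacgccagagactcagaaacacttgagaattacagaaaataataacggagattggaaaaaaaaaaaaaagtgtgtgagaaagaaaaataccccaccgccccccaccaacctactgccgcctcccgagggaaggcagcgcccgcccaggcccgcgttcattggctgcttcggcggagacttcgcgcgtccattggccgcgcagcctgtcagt
Foxo3 (chr10:42276756-42276945, minus strand): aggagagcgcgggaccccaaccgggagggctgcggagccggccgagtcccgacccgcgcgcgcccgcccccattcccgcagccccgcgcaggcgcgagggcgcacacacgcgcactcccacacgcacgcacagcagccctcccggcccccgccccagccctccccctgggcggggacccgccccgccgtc
Neither printed stretch holds any of the 6 motifs searched. Beside the 3 named above these were GTAAACA, the core bound by FOXO factors, TGACGTCA, the full CREB site, which contains the half-site, and the glucocorticoid response element. A CGTCA of *Foxo3* starts 64 bases before its RefSeq start site and runs past the end of the stretch shown. Over all entries 3.65% hold the FOXO core, 1.79% the full CREB site and 0.00913% the glucocorticoid response element. Base composition differed, with 55.8% G and C in the *Foxo1* stretch, 81.6% in that of *Foxo3*, and a median of 52.4% over the 250 upstream bases of all entries. *Insr*, *Foxo4* and *Trib1* have no entry. Among the genes with entries not printed here, an *Akt1* entry holds GTAAACA and AAAACAA, 161 and 125 bases before its start site. *Akt2* entries hold AAAACAA and the CREB half-site, and a *Pik3r1* entry holds the CREB half-site. None of these genes was called.

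*Trib1* (ENSMUSG00000032501, chromosome 15, 59648350 to 59657099, plus strand) encodes a pseudokinase that brings the ubiquitin ligase COP1 to C/EBPα and is known for its effect on hepatic lipid synthesis. It was at 79.8, 62.6, 59.7, 82.6 and 62.1 CPM in GF+MEV livers and at 45.6, 35.8, 48.3, 55.2 and 55.6 CPM in GF+PBS livers. The groups did not overlap, with GF+MEV replicates 1 and 4 well above the rest. The mean rose from 48.1 ± 8.13 to 69.4 ± 10.9 CPM (± SD, n = 5 each), or by 0.53 on the log2 scale (95% interval 0.27 to 0.80, standard error 0.12), with an edgeR adjusted p of 0.0165. Among the tribbles relatives counted with the brakes below, *Trib2* and *Trib3* were not called.

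**Figure D2:**
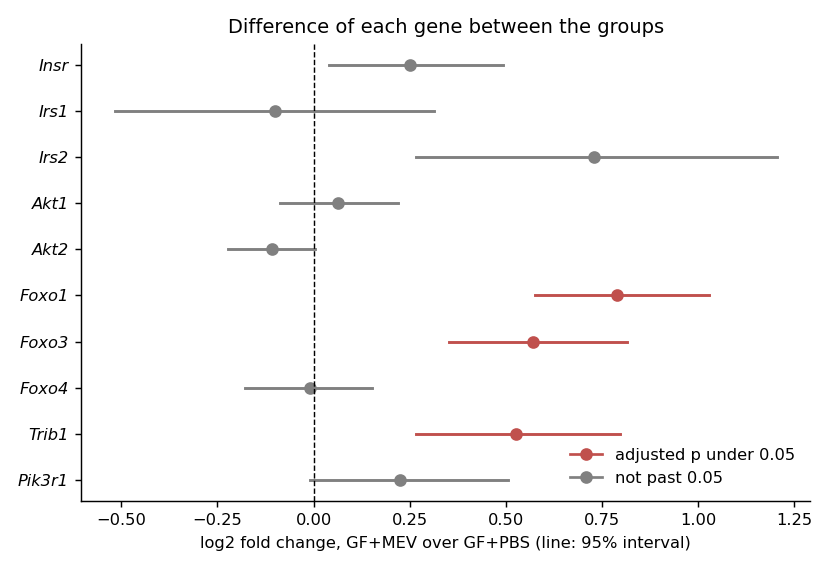
Log2 fold change of each gene, GF+MEV over GF+PBS (point, edgeR), with its 95% interval (line, limma), in red where the adjusted p was under 0.05. *Foxo1*, *Foxo3* and *Trib1* are past the threshold, and the intervals of *Insr* and *Irs2* lie above zero without passing the adjustment over all genes.

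The libraries that stood apart or were alike did not decide the 3 calls. Without GF+MEV replicate 2, the log2 fold changes were 0.78 for *Foxo1*, 0.57 for *Foxo3* and 0.56 for *Trib1* (edgeR adjusted p of 0.000575, 0.00914 and 0.0207). With the counts of GF+PBS replicates 1 and 3 added together, and those of replicates 4 and 5, they were 0.75, 0.56 and 0.59 (edgeR adjusted p of 0.00153, 0.0106 and 0.0379). Within GF+PBS, replicates 1 and 3 were the lowest pair of livers in 6 of the 10 genes, namely *Insr*, *Irs2*, *Pik3r1* and the 3 FOXO genes, which held for 18.3% of all tested genes. That pair was singled out once the values were known.

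Per kilobase of merged exon, the scale on which genes can be compared with each other, the AKT genes were the most abundant of the 10 and *Irs1* the least. In GF+PBS livers *Akt2* was at 18.6 ± 0.69 and *Akt1* at 15.4 ± 1.41 CPM per kilobase (SD, n = 5), and the 5 livers did not overlap between them. *Foxo4* (8.49), *Insr* (8.397), *Foxo3* (8.27) and *Trib1* (7.70) followed, and each overlapped its neighbour in this order. *Pik3r1* (5.08), *Irs2* (4.05) and *Foxo1* (2.67) also overlapped in turn, and *Irs1* was lowest at 0.779 ± 0.20 CPM per kilobase, apart from *Foxo1* in every liver.

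In GF+MEV livers *Foxo3* followed both AKT genes, at 12.3 ± 1.01 CPM per kilobase, below *Akt1* (16.1) and without overlap with it, and above *Foxo4* (8.43). *Trib1* followed at 11.1 ± 1.75. *Foxo1* was at 4.60 ± 0.25, still below *Pik3r1* (5.94) in every liver. *Foxo3* thus had the highest level of the 3 FOXO genes in GF+MEV livers, while in GF+PBS livers the levels of *Foxo3* and *Foxo4* overlapped. With the longest annotated transcript as the length, the level of *Insr* in GF+PBS livers was 12.3 and that of *Akt2* 29.2 CPM per kilobase, so the order in the middle of the list depends on the length used.

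**Figure D3:**
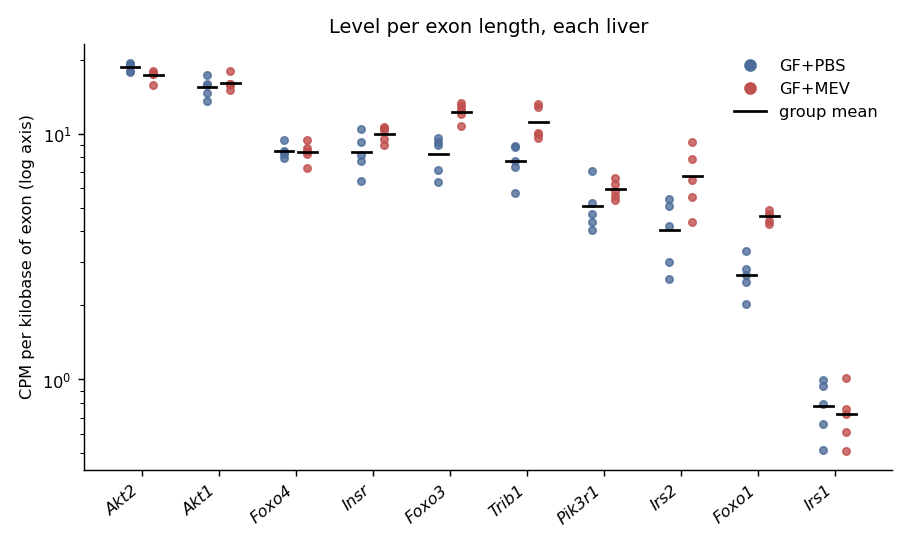
CPM per kilobase of merged exon (log axis) of the 10 genes in each GF+PBS (blue) and GF+MEV (red) liver, with group means as black bars, ordered by the GF+PBS mean. *Akt2* and *Akt1* are highest and *Irs1* lowest in both groups, and *Foxo3*, *Trib1* and *Foxo1* are the genes whose groups are apart.

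The rest of the pathway was read from lists of genes around these 10, written from general knowledge with earlier results of these data known. Each list is read beside the 7.64% of all tested genes that were called. The counts at an unadjusted p under 0.05 have no such share beside them. Of 9 tested receptor-proximal adaptors, among them *Shc1*, *Grb2* and *Gab1*, none was called by edgeR (1 at an unadjusted p under 0.05, and none by DESeq2 or limma-voom). Of 13 tested PI3K subunits and AKT-activating kinases, 1 fell and none rose (5 at an unadjusted p under 0.05, 3 called by DESeq2). It was *Pik3c2b*, a class II PI3K, which went from 7.89 ± 0.59 to 5.48 ± 0.76 CPM (SD, n = 5 each, log2 fold change -0.53, edgeR adjusted p = 0.01), and it missed the threshold with the alike GF+PBS livers summed (adjusted p = 0.0539). Of 15 AKT substrates and mTORC1 genes, none was called (1 at an unadjusted p under 0.05, and none by DESeq2 or limma-voom), and their values lay between -0.13 and 0.18. The median log2 fold changes of these 3 lists were 0.02, 0.03 and 0.01.

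Among 20 tested brakes on insulin signalling, 2 fell and none rose (6 at an unadjusted p under 0.05), a share near the 7.64% called among all tested genes, and the median was 0.10. *Socs3*, whose product binds cytokine receptors and also blocks IRS proteins, was at 10.3, 10.9, 11.7, 10.1 and 8.54 CPM in GF+MEV livers and at 26, 13.6, 26.3, 26.4 and 24.4 CPM in GF+PBS livers. *Socs3* fell by 1.18 on the log2 scale (edgeR adjusted p = 0.000275), and GF+PBS replicate 2 was nearest to the GF+MEV livers. *Grb7*, an adaptor of the family of GRB10 and GRB14, fell from 142 ± 7.53 to 91.6 ± 7.35 CPM (± SD, n = 5 each), by 0.63 on the log2 scale (edgeR adjusted p = 1.68e-05). Of its relatives that bind the insulin receptor, *Grb10* (log2 fold change 0.29, edgeR adjusted p = 0.394) and *Grb14* (0.14, edgeR adjusted p = 0.13) were not called. For *Grb14* the groups still did not overlap, at 70.8 to 75.8 CPM in GF+MEV and 62.6 to 70.3 CPM in GF+PBS livers. Separation with GF+MEV above held for 3.94% of all tested genes.

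Of 23 tested FOXO regulators and partners, 2 rose and none fell (4 at an unadjusted p under 0.05), again a share near the 7.64% of all tested genes, and the median was 0.05. *Sgk1*, an AKT-related kinase that also phosphorylates FOXO factors, rose from 15.1 ± 1.76 to 28.8 ± 1.36 CPM (± SD, n = 5 each), by 0.93 on the log2 scale (edgeR adjusted p = 3.9e-06). *Crebbp*, which encodes the acetyltransferase CBP, rose from 19.1 ± 2.80 to 25.4 ± 1.94 CPM (± SD, n = 5 each), by 0.41 on the log2 scale (edgeR adjusted p = 0.0211). It missed the threshold without GF+PBS replicate 3 (adjusted p = 0.0524) and on library size alone (adjusted p = 0.0614). The genes for the 14-3-3 proteins, AMPK and SIRT1 in this list were not called.

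Of 24 FOXO target genes, all of them tested, 8 rose and 1 fell, beside 7.64% of all tested genes called, and their median log2 fold change was 0.28. The largest rises were in *Igfbp1*, which encodes an insulin-like growth factor binding protein (log2 fold change 3.72, edgeR adjusted p = 8.54e-08), *Cdkn1a*, the cell cycle inhibitor p21 (2.39), *G6pc* (2.28) and *Pck1* (1.71). *Gadd45a*, a DNA damage gene and the 1 that fell, went from 4.02 ± 0.65 to 1.58 ± 0.23 CPM (± SD, n = 5 each), and fell by 1.35 on the log2 scale (edgeR adjusted p = 0.000104). Exons on the other strand overlap 4 of the 9 called genes, *Gadd45a* (E230016M11Rik), *Cdkn1a* (AC167363.2), *Txnip* (Gm15441) and *Map1lc3b* (Zcchc14), so reads could be shared. The other 4 that rose, named after their values were seen, were *Txnip* (log2 fold change 1.5017), *Ppargc1a* (1.21), *Map1lc3b* (0.37) and *Pnpla2* (0.29), and *Pnpla2* was past the threshold only narrowly (adjusted p = 0.0461, and missed in 12 of 19 alternatives, up to 0.119). Genes of antioxidant defence in the list, *Sod2* and *Cat*, were not called.

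Of 11 genes that insulin induces in the liver, mostly of fatty acid synthesis, none was called by edgeR (3 at an unadjusted p under 0.05, 1 called by DESeq2), and the median log2 fold change was -0.10. For *Srebf1*, which encodes SREBP1, the log2 fold change was -0.23 (95% interval -0.59 to 0.20, edgeR adjusted p = 0.521). The 3 at an unadjusted p under 0.05 were all lower in GF+MEV livers. They were *Pnpla3* (log2 fold change -1.56, edgeR adjusted p = 0.0513), *Acly* (-0.29, edgeR adjusted p = 0.156) and *Me1* (-0.28, edgeR adjusted p = 0.132). *Pnpla3* was scarce, with means of 1.41 CPM in GF+PBS and 0.475 CPM in GF+MEV livers. Of the 11 genes, 4 had a log2 fold change above zero. The genes named from this list were picked after their values were seen.

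**Figure D4:**
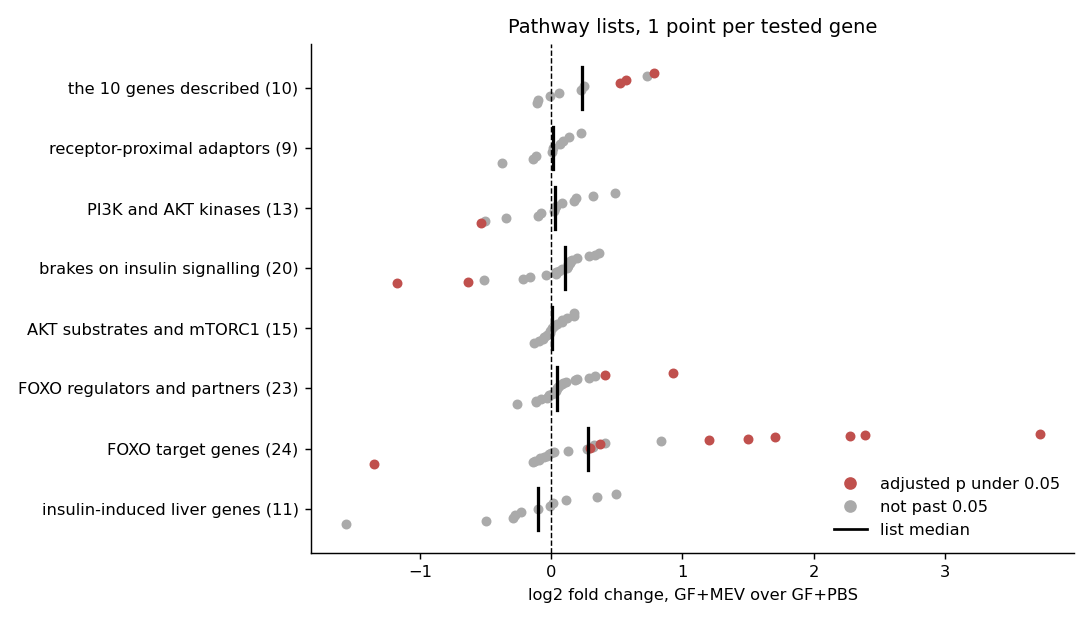
Log2 fold change of every tested gene (1 point each, red where the adjusted p was under 0.05) in the 10 genes described and 7 lists around them, with the number tested in brackets and the list median as a black bar. Of the FOXO target genes 9 of 24 are called, beside 7.64% of all tested genes, and the differences between lists were not tested.

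**Figure D5:**
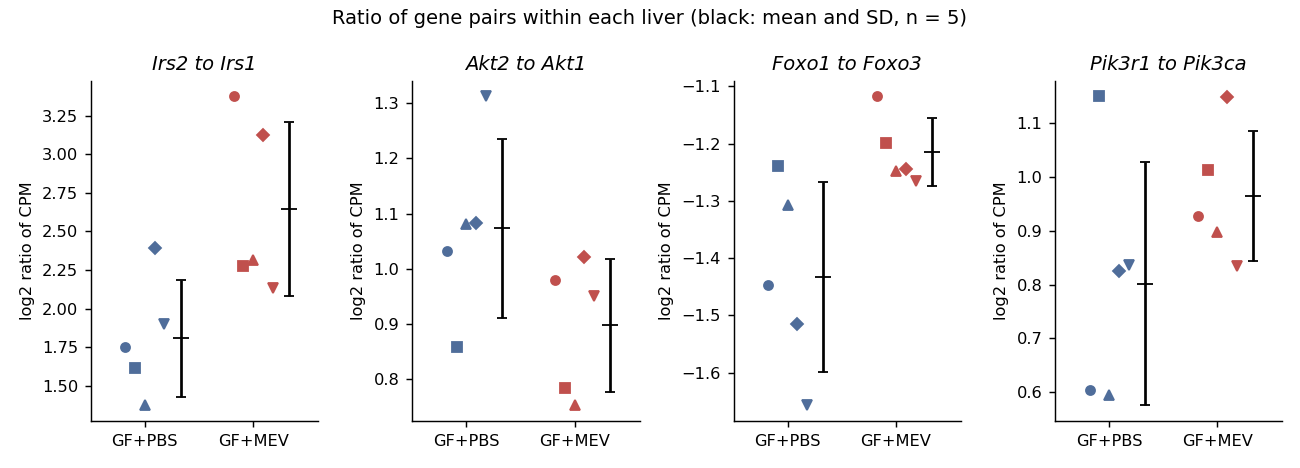
Log2 ratio of CPM between paired genes within each liver (axes do not start at 0), GF+PBS in blue and GF+MEV in red, with symbol shapes for replicate numbers as in the CPM plot and the mean and SD in black (n = 5). The groups overlap in every ratio, and GF+PBS replicate 2 is the GF+PBS liver farthest towards the GF+MEV side in the *Akt2* to *Akt1*, *Foxo1* to *Foxo3* and *Pik3r1* to *Pik3ca* ratios.

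In whole liver RNA, fewer cells of a type and less RNA per cell cannot be told apart. Hepatocyte markers were abundant, with 98890 to 119100 summed CPM in GF+MEV and 99810 to 116200 in GF+PBS livers. Of these 8 markers 4 were called higher, *Tat*, *Hnf4a*, *Cps1* and *Ass1*. None of the 7 Kupffer cell, 7 stellate cell, 5 red cell, 4 tested skeletal muscle or 1 tested adipocyte markers was called (edgeR, with 0, 1, 0, 1 and 0 at an unadjusted p under 0.05), and no exocrine pancreas marker was in the table. The skeletal muscle markers summed to 223.5 to 309.8 CPM in GF+MEV livers and spread from 190.5 to 664.3 CPM in GF+PBS livers. Their median log2 fold change was -0.67. Endothelial markers went both ways, *Lyve1* up and *Clec4g* down, and summed to 143 to 229 CPM in GF+MEV and 171 to 227 in GF+PBS livers. Of 4 tested B and T cell markers, *Cd79a* and *Cd79b* were called lower, and the 4 summed to 3.86 to 4.88 CPM in GF+MEV and 6.61 to 8.44 CPM in GF+PBS livers. Of 3 tested biliary markers *Krt19* was called higher. It was at 0.303 to 0.781 CPM in GF+PBS livers and at 0.964 to 16.8 CPM in GF+MEV livers. *Sox9* (log2 fold change -0.98, edgeR adjusted p = 0.103) and *Spp1* (0.52, edgeR adjusted p = 0.133) were not called and went opposite ways. The part of these cell types in the values of the 10 genes was not tested.

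For each gene that rose, the 3 genes with the most similar profile over the 10 livers were taken from 11833 others with a mean of at least 1 CPM, by the root mean square difference of centred log2 CPM. The nearest genes lie below the median of all genes by selection. Profiles were centred over both groups, so a like difference between the groups brings genes near. For *Foxo1* they were *Rlf* (0.10), *Phf8* (0.10) and *Rhbdd2* (0.11), against a median of 0.47 over all genes. The log2 fold changes of these 3 genes were 0.73, 0.70 and 0.79. Exons of *Rhbdd2* and *Mpzl2* overlap genes on the other strand. For *Foxo3* they were *Mpzl2* (0.08), *Prdm2* (0.10) and *Zfp281* (0.10), and for *Trib1* they were *Tob1* (0.13), *Etnppl* (0.15) and *Ankrd33b* (0.16), against medians of 0.38 for either gene.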

How the data were processed

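RNA-seq was performed on livers of 5 GF+MEV and 5 GF+PBS mice. Alignment by the authors was to GRCm38 with STAR 2.7.3a in its two-pass mode. They counted reads per gene with HTSeq and removed genes with fewer than 20 counts over all samples. They deposited raw counts per Ensembl gene, not normalised. The HTSeq version, strand setting and annotation release are not given in the sources used here. The table also held 5 columns that match no described sample, which were not used. Libraries were matched to samples by the library name in the labels.

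Symbols, positions and exon lengths came from GENCODE M21 (GRCm38), and upstream sequences from RefSeq's table (GRCm38.p6), where 7 of the 10 genes had an entry. All genes that reached 20 counts in total over these 10 libraries entered edgeR 4.0.16 in R 4.3.3 (TMM, quasi-likelihood test, treatment group as the only term, Benjamini-Hochberg). Standard errors and intervals were from limma 3.58.1 on log2 CPM with a prior count of 2. DESeq2 1.42.0, limma-voom and other settings were alternatives. For ratios within livers, 252 labelings were enumerated in a two-sided exact permutation test, which cannot give a p under 0.00794. Intervals cover these livers only, and counting error is smallest for the genes with most counts. The fits were tested on simulated data.

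All 10 genes were named. In each list every called gene was named where there were 4 or fewer, and otherwise the 4 with the largest change and a mean of at least 1 CPM. The genes and lists were chosen with earlier results of these data known.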

Additional observations from a re-analysis of the deposited data

Results flagged for a closer look

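Dixon's ratio (critical value 0.71 for 5 livers) set 1 liver apart in 3 of 60 groups of values, and chance alone gives 3. GF+MEV replicate 2 had 112.5 CPM of *Akt2*, and its group otherwise spanned 124 to 128.5 CPM. The TMM factor of the same library was 0.890, against 0.978 to 1.01. In GF+PBS replicate 2 *Socs3* stood at 13.6 CPM, while the remaining 4 livers of that group held 24.4 to 26.4 CPM.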

How the results depend on the processing

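The calls of *Foxo1* (log2 fold change 0.70 to 0.88), *Foxo3* (0.49 to 0.63) and *Trib1* (0.44 to 0.59) kept their direction and stayed past the threshold under all 19 alternatives, the highest adjusted p being 0.0453 for *Trib1*. The number of the 10 genes called was 3 to 5 over leave-one-out fits, 5 without GF+PBS replicate 5 (*Insr* and *Irs2* added). *Akt1* changed sign on library size alone (-0.0108), and *Foxo4* without GF+MEV replicate 2 (0.0411) or GF+PBS replicate 5 (0.0276) and with alike GF+PBS livers summed (0.0021), with a range from -0.052 to 0.0411 over livers left out. Leaving out single livers moved *Irs1* between -0.24 and -0.0011 and *Akt1* between 0.02 and 0.11, with no call. Library size alone moved the median of all genes by -0.07 and the share of higher calls from 53.9% to 32.5%, and upper-quartile scaling moved the share to 41.2%.

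Over all genes 928 were called, 561 with alike livers summed, 1201 by DESeq2, and 696 to 926 with single livers left out. Of the PI3K and AKT kinases 1 was called, against 3 by DESeq2, 2 by limma-voom, upper-quartile scaling, library size alone or the replicate block, 0 with alike livers summed, and 1 to 3 with single livers left out. Of the FOXO regulators 2 were called, 1 on library size alone and 1 to 3 with single livers left out. Of the insulin-induced genes 0 were called, 1 by DESeq2 or upper-quartile scaling, 2 on library size alone, and 0 to 2 with single livers left out. With single livers left out, the difference of the within-liver ratio ranged from -0.23 to -0.12 for *Akt2* to *Akt1*, from 0.16 to 0.27 for *Foxo1* to *Foxo3*, and from 0.11 to 0.25 for *Pik3r1* to *Pik3ca*. The causes were not tested.

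Deviations from the group mean correlated across genes at -0.188 to 0.166 between same-numbered livers of the groups. Between differently numbered livers the correlations were -0.193 to 0.121. At 5 livers per group this does not decide whether the numbers pair them. With the replicate block 792 genes were called, *Irs2* among them (log2 fold change 0.74, adjusted p = 0.0385), and *Pnpla2* was not (adjusted p = 0.0942). It changed no other call among the 10 genes and the pathway list genes called without it. Single genes beyond these were not followed under the alternatives.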
